A study of Mus musculus with 31 samples.

Results

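Cortical splicing was compared between knock-in mice that carry 1 mutant huntingtin allele of 150 glutamines beside a wild-type allele of 7 (150Q/7Q, the Q150 HET mice, n = 4) and wild-type mice with 7 glutamines on both alleles (Q7/Q7, WT, n = 5). These 9 mice were chosen by the genotype field of their labels and by their file set, out of 31 mice in the series. For the HET mice the titles name the line Q150 and the genotype entries Q175, so the repeat length given there (150Q/7Q) decided. All 9 mice were untreated, the line was B6.129P2-Htttm2Detl/150J, and the age was 7 months according to the methods of the study. The mutation sits in the mouse gene itself, so it is present in every cell that expresses huntingtin. RNA came from 1 hemisphere of the cortex as bulk tissue. Sexes were balanced according to the methods, but the sex of single mice is not in the labels. The mice fall into 2 series by the number in their titles, under 100 (HET replicates 1 to 3 and WT replicates 1 to 3) and in the 400s (HET replicate 4 and WT replicates 4 and 5). What the series stand for is not stated, and the series was a term in the main models of HET against WT.

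RASL-seq, in which probe pairs that anneal side by side on RNA are ligated and sequenced, counts a short junction, which leaves an alternative exon out, and a long junction, which keeps it in. Exclusion is the short count as a percent of short plus long. Changes are given as the difference in the log2 short-to-long ratio, HET minus WT, with its standard error (SE). For a cassette exon a positive value is more skipping, and for other event types it is more use of the short junction. The files listed 1785 events in 1463 genes for these mice, 1720 of them labelled as cassette exons. Totals were 2970207 to 4358992 counts per mouse, and the median event held 492 to 757 counts. The lowest count of any junction in any of the 9 mice was 4, so events in which a junction was lost are not seen here. Because PCR copies carry no molecular identifiers, counting intervals cover counting error only. Nothing in the labels says more about the origin of the mice than their numbers, and p-values measure the spread between these 9 mice.

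In Huntington's disease (HD), the huntingtin protein carries too long a run of glutamines near its start, and longer runs bring earlier onset. Mutant huntingtin binds many RNA-binding proteins, and the study asked whether exon usage is altered in mice that express it. Whether an exon is kept is decided by the splice sites at its ends and by RNA-binding proteins on the exon and the introns beside it. TDP-43, which binds UG-rich RNA, is such a protein, and its loss from the nucleus is a feature of amyotrophic lateral sclerosis and frontotemporal dementia. In the cortex many cassette exons are neuron-specific and code for short inserts in receptors, adhesion molecules and scaffolds.

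The exons at the centre of the results are printed here 5′ to 3′ on the transcribed strand, with the exon in capitals and 15 intronic bases on each side in lower case, from the GRCm38 genome. Each was found by its gene and by the distance between the neighbouring splice sites in the GENCODE M21 annotation, because most positions in the files do not lie on GRCm38. The first set belongs to genes of RNA-binding proteins. The Hnrpdl exon lies at chr5:100036481-100036651 on the minus strand (171 bases, exon 6 of 8, coding), and the Rbm5 exons at chr9:107759776-107759849 (74 bases, exon 6 of 25), chr9:107755853-107755913 (61 bases, exon 8) and chr9:107750008-107750092 (85 bases, exon 16) on the minus strand, all coding. The Rbm5 exons are not multiples of 3 bases, so skipping them shifts the reading frame, and the Hnrpdl exon is one.
Hnrpdl exon: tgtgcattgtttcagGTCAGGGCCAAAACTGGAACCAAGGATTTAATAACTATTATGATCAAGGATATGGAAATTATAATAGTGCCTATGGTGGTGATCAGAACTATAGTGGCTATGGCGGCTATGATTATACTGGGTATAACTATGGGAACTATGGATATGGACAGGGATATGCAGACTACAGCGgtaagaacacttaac
Rbm5 exon of 74 bases: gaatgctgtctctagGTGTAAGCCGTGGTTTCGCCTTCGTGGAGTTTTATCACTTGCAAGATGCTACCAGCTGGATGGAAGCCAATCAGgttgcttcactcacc
Rbm5 exon of 61 bases: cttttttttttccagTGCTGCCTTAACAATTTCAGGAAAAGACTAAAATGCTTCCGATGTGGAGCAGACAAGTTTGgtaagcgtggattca
Rbm5 exon of 85 bases: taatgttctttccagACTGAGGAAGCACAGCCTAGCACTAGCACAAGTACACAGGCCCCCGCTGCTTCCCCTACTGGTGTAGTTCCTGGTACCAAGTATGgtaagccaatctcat

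The second set shows an exon of the neurexin gene Nrxn3, the alternative exons of the NMDA receptor subunit Grin1, and an exon of Sort1 that is a known TDP-43 target. The Nrxn3 exon lies at chr12:90199147-90199236 on the plus strand (90 bases, exon 17 of 20, coding). The Grin1 exons lie at chr2:25311343-25311405 (63 bases, exon 4 of 20) and chr2:25294438-25294548 (111 bases, exon 19 of 20) on the minus strand, and the Sort1 exon at chr3:108355472-108355570 on the plus strand (99 bases, exon 18 of 21).
Nrxn3 exon: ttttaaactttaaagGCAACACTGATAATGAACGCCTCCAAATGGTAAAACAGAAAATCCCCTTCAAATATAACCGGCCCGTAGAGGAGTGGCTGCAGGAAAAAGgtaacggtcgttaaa
Grin1 exon of 63 bases: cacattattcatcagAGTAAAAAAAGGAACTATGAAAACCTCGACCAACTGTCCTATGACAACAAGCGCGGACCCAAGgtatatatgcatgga
Grin1 exon of 111 bases: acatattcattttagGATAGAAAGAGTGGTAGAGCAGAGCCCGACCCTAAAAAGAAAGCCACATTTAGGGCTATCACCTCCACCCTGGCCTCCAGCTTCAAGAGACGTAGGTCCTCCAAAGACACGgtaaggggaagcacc
Sort1 exon: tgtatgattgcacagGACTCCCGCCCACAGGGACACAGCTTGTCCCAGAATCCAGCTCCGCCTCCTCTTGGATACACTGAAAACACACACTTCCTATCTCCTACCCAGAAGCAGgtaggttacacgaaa

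Exon exclusion was higher in Q150 HET cortex across the panel. The mean over 1785 events was 44.5%, 44.9%, 44.5%, 44.5% and 44.7% in WT replicates 1 to 5 and 45.7%, 45.6%, 45.5% and 45.4% in HET replicates 1 to 4. All 4 HET mice lay above all 5 WT mice. Group means were 44.6% ± 0.175 (SD, n = 5) and 45.5% ± 0.145 (SD, n = 4), a difference of 0.922 percentage points with the series as a term. This was the largest difference that the 60 arrangements of the mice within their series can give (two-sided exact permutation test, p = 0.0167, the smallest they allow). Within the series the difference was 0.960 points under 100 (3 HET, 3 WT) and 0.837 points in the 400s (1 HET, 2 WT). Without HET replicate 4, or in the series under 100 alone, the difference was 0.960 points at p = 0.10, the smallest p that 3 against 3 mice allow in the exact test.

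The shift was seen in exons of low and of intermediate exclusion. Classes were set by the 5 WT mice of the Q175 set, which do not enter the comparison. Over 1074 events of 10 to 90% exclusion the mean went from 47.8% ± 0.273 to 49.1% ± 0.183, and over 399 events under 10% from 4.37% ± 0.163 to 4.85% ± 0.125 (SD, n = 5 and 4). In both classes and over the 1720 cassette exons all HET mice lay above all WT mice (exact permutation test, adjusted p = 0.0389 over 7 classes). The 258 events over 90% changed by 0.130 points (adjusted p = 0.140 by the exact permutation test), and a further 54 events have no value in the other WT mice. Among the other event types, means moved by 0.528 points over 30 alternative 3′ sites, 0.894 points over 20 alternative 5′ sites and -1.26 points over 15 mutually exclusive exons, with adjusted p from 0.117 to 0.317 in the exact permutation test.

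**Figure D1:**
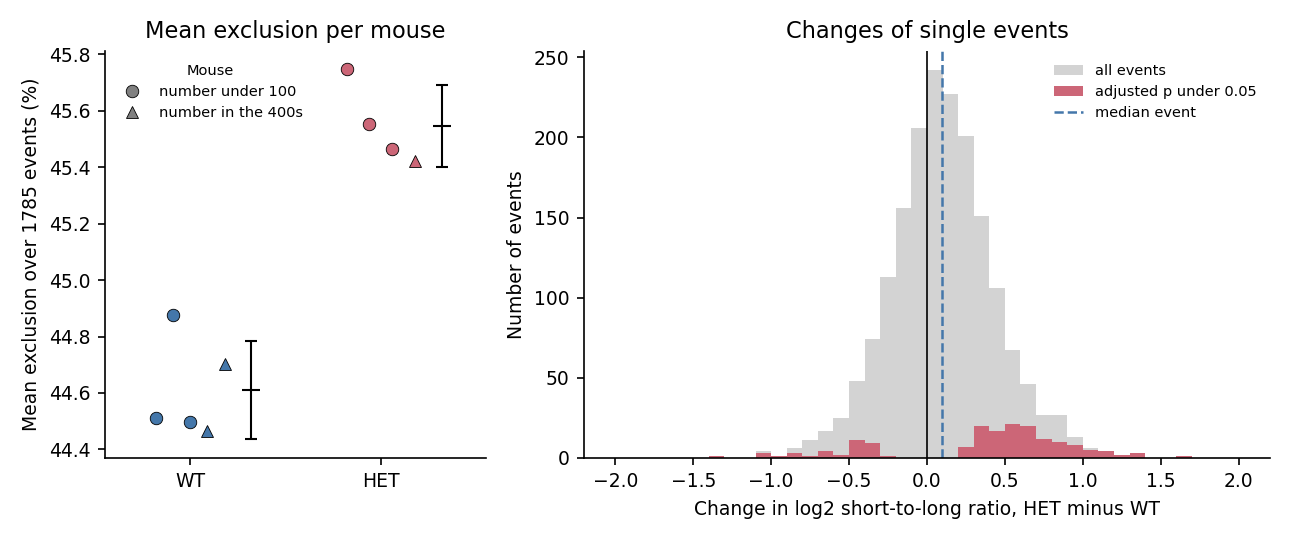
Left, mean exclusion (%) over 1785 events in each mouse, with circles for mouse numbers under 100, triangles for the 400s, and bars for the group mean and SD (WT n = 5, HET n = 4; the axis does not start at 0). Right, the number of events by change in log2 short-to-long ratio, with the 166 events past the threshold drawn in front of all events; the median event lies at 0.09, right of 0.

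Of single events, 166 in 152 genes changed (limma, Benjamini-Hochberg adjusted p under 0.05), 9.3% of the 1785 tested. Exclusion was higher in HET for 130 of them (7.28% of all events) and lower for 36 (2.02%). The size of the change ran from 0.24 to 1.62 with a median of 0.58, and the median shift was 5.24 points for higher and -4.63 points for lower events. More than 10 points separated the group means in 25 events, and 19 events changed by at least 1 on the log2 scale. The 4 HET mice lay above all 5 WT mice in 106 events (5.94%) and below all of them in 26 (1.46%); 75 and 13 of these are among the changed events.

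The median of all events was itself raised by 0.09, and 62.9% of events had a positive change. Relative to the median event of each mouse, 143 events changed (8.01%), 63 higher (3.53%) and 80 lower (4.48%), so the share of higher events among the changed ones went from 78.3% to 44.1%. On both scales 63 events were higher and 36 lower. Without the series term 71 events changed, without HET replicate 4 it was 73 and without HET replicate 1 it was 99, while a fit with no trend of the variance on the counts called 44. HET replicate 4 is the only heterozygote of the 400s.

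Genes of RNA-binding proteins and splicing factors, many of which control their own level through exons that shift the reading frame, held the largest rise. Of 83 events in 59 such genes, 10 were higher and 1 lower in HET, 13.3% against 9.3% of all events, with a median change of 0.17 against 0.09; centred on the median event, 7 were higher and 3 lower. Those on the higher side were Hnrpdl, Sfrs8, Hnrnpa1, Celf4, Ptbp2, Srrm2, Zc3h14 and 3 exons of Rbm5.

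Hnrpdl encodes a heterogeneous nuclear ribonucleoprotein, and the 171-base exon printed above codes for a tyrosine- and glycine-rich stretch. Its exclusion was 1.06%, 1.14%, 1.04%, 0.855% and 1.11% in WT and 3.29%, 3.02%, 3.605% and 2.84% in HET. The highest WT mouse was far below the lowest HET mouse. The change was 1.62 ± 0.12 (SE, limma adjusted p = 6.68e-11), on 7852 to 11832 counts per mouse, and the widest 95% Wilson interval of a single mouse reached 0.371 points to each side. The other Hnrpdl event, a 105-base exon outside the coding sequence at chr5:100035635-100035739, had an exclusion of 86.1% ± 0.703 in WT and 85.99% ± 1.17 in HET, with a change of 0.00 ± 0.08. One exon of the gene thus differed between the groups and for the other the mice overlapped.

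All 3 Rbm5 events rose. Rbm5 is a spliceosome-associated RNA-binding protein that acts on exons of apoptosis genes. The 74-base exon was left out in 3.75%, 4.34%, 4.19%, 3.68% and 4.23% of WT counts and 5.81%, 5.90%, 5.23% and 7.26% of HET counts. For the 61-base exon exclusion was 1.64%, 4.06%, 2.69%, 2.03% and 3.90% in WT and 7.63%, 4.65%, 6.25% and 7.96% in HET. For the 85-base exon it was 1.48%, 0.893%, 1.08%, 0.648% and 1.17% in WT and 3.64%, 2.28%, 2.82% and 2.20% in HET. None of the 3 had overlapping groups, and all shared the same direction in both series. The changes were 0.62 ± 0.12, 1.33 ± 0.29 and 1.31 ± 0.34 (limma adjusted p = 9.84e-04, 0.00293 and 0.0117). The call of the 61-base exon was lost without HET replicate 4 (adjusted p = 0.0559) and without the variance trend (0.0632), and that of the 85-base exon without HET replicate 4 or 1 (adjusted p = 0.0737 and 0.0556).

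Sfrs8 (Sfswap), a splicing regulator that controls its own splicing, was left out more often at a 153-base exon that is non-coding in its annotated transcript, 70.3%, 70.6%, 72.0%, 69.8% and 77.5% in WT against 79.7%, 81.8%, 79.1% and 84.0% in HET. WT replicate 5 lay closest to the HET mice and still below them all. The change was 0.78 ± 0.12 (adjusted p = 5.24e-05). Srrm2, a large protein of the spliceosome, went from 5.79% ± 1.59 to 11.8% ± 2.33 on only 96 to 227 counts per mouse (1.12 ± 0.35, adjusted p = 0.0372), and this call was lost when any of 5 single mice was left out (highest adjusted p = 0.150). Ptbp2, the neuronal polypyrimidine tract-binding protein, went from 1.47% to 2.21% (0.63 ± 0.17, adjusted p = 0.0164). Hnrnpa1 has near-identical processed copies in the genome, so its event (0.42 ± 0.08) may hold counts of these.

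Known targets of TDP-43 in the mouse brain were few on the panel. 7 events of 7 genes were measured, 2 were higher and 0 lower (28.6% against 9.3% of all events), and the median change was 0.35 against 0.09 over all events. The events were taken by gene, so an event of this list need not be the exon that TDP-43 acts on. Centred on the median event it was 1 higher and 1 lower. Sort1 encodes sortilin, a sorting receptor, and TDP-43 is known to repress its 99-base exon. Exclusion of that exon was 95.2%, 94.6%, 94.3%, 94.8% and 93.8% in WT and 96.5%, 96.2%, 95.7% and 96.3% in HET. All HET mice were higher, by 0.53 ± 0.10 (limma adjusted p = 7.02e-04), on 9642 to 16175 counts. The 30-base exon of Ppp3ca, the catalytic subunit of calcineurin, was left out in 37.0%, 36.5%, 36.2%, 32.2% and 35.1% of WT counts and 45.5%, 41.3%, 40.2% and 39.3% of HET counts (0.35 ± 0.08, adjusted p = 0.00364). The HET mice were again above every WT mouse, but relative to the median event the Ppp3ca call was lost (adjusted p = 0.0534), and without the variance trend so were those of Sort1 and Ppp3ca (adjusted p = 0.0717 and 0.135). No event of Tardbp, which encodes TDP-43, of the m6A writer Mettl3 or of Htt was among those listed.

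**Figure D2:**
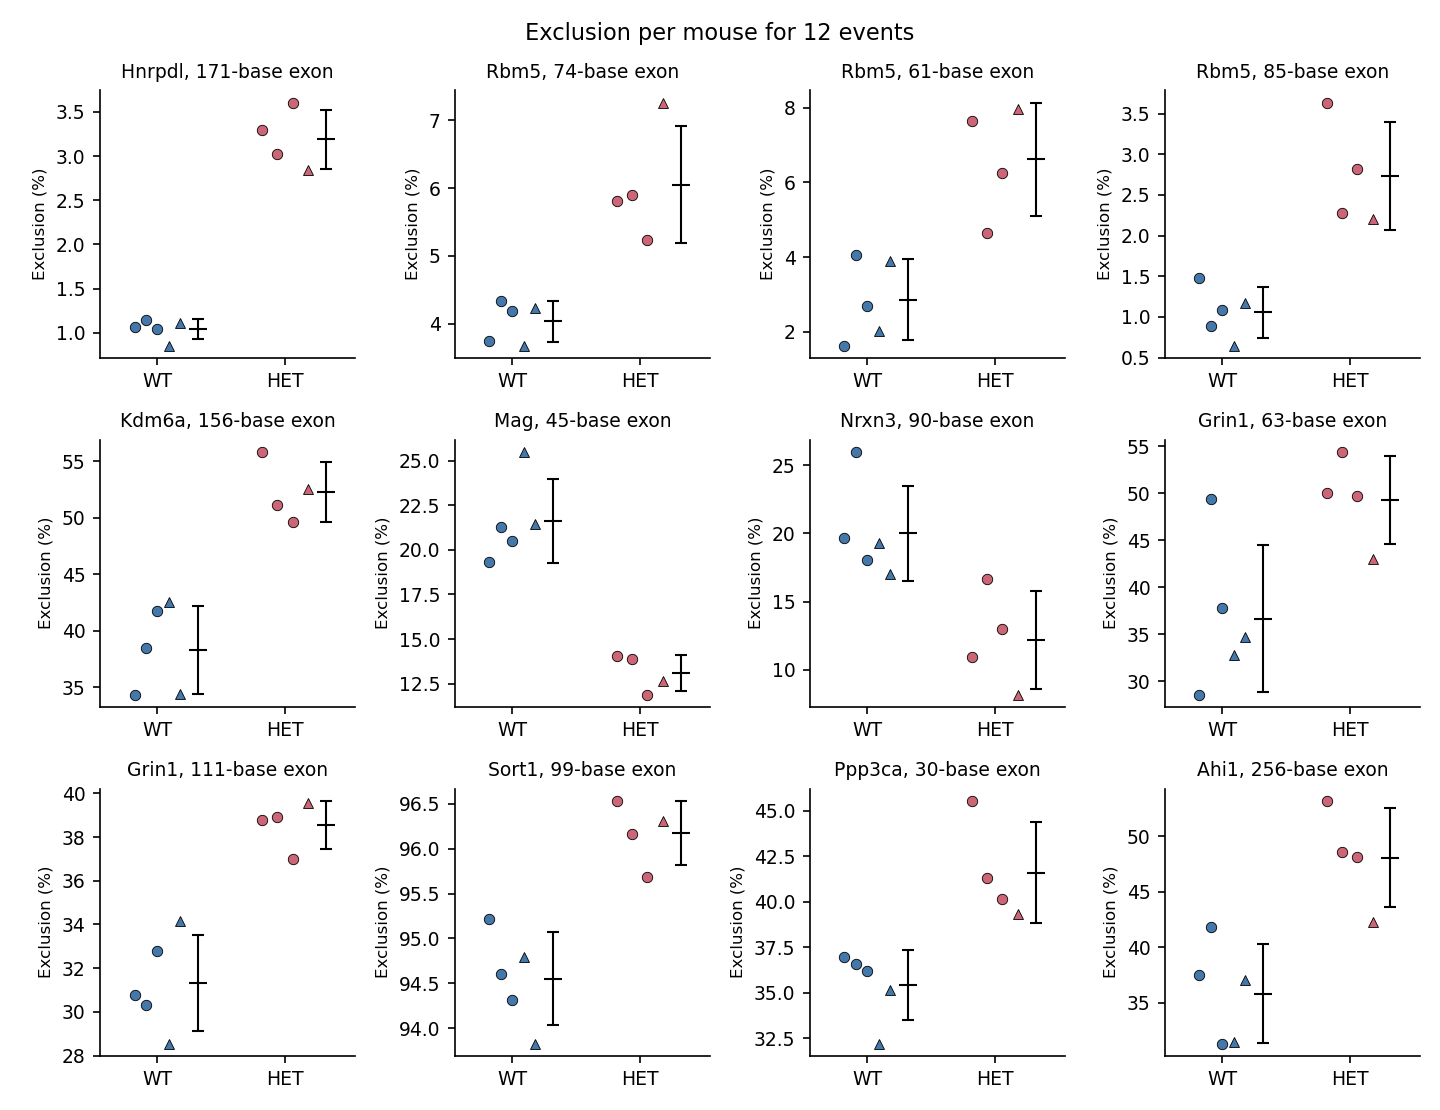
Exclusion (%) of 12 events in each of the 9 mice, with circles for mouse numbers under 100, triangles for the 400s, and bars for the group mean and SD (WT n = 5, HET n = 4). Axes differ between panels and do not start at 0; HET mice lie above all WT mice for Hnrpdl, the 3 Rbm5 exons, the 111-base Grin1 exon, Sort1, Ppp3ca, Ahi1 and Kdm6a, below them for Mag and Nrxn3, and overlap WT replicate 2 for the 63-base Grin1 exon.

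Among genes of synaptic adhesion and scaffolding, 9 of 69 events were higher and 4 lower (18.8% against 9.3% of all events; median change 0.10 against 0.09), and 3 and 4 when centred on the median event. This share counts 3 events of Sorbs2 that are ratios between the same 3 junctions. Nrxn3 is a neurexin, a presynaptic adhesion molecule whose partners across the cleft depend on the insert coded by the 90-base exon. Exclusion of that exon was 19.7%, 26.0%, 18.02%, 19.3% and 17.1% in WT and 10.9%, 16.7%, 12.98% and 8.20% in HET. The highest HET mouse was just below the lowest WT mouse, and the change was -0.95 ± 0.15 (limma adjusted p = 7.46e-05).

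Sorbs2, a scaffold of actin and synapses, had 4 changed events. At its 45-base exon (chr8:45770546-45770590, plus strand) exclusion was 55.1%, 56.2%, 52.5%, 53.6% and 53.6% in WT and 69.6%, 61.95%, 66.1% and 64.6% in HET, with no overlap and a change of 0.68 ± 0.13 (adjusted p = 7.72e-04). The other 3 events are ratios between the same 3 junctions and were not separate measurements, with changes of 0.85, -0.47 and 0.38. Shank1, a scaffold of the postsynaptic density, went from 61.0% to 67.1% (0.40 ± 0.09, adjusted p = 0.00364). Erc2, of the presynaptic active zone, went from 36.4% to 50.6% (0.86 ± 0.26, adjusted p = 0.0340).

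Of 28 events in genes of ion channels, pumps and receptors, 3 were higher and 1 lower (14.3% against 9.3% of all events; median 0.15), and 2 and 3 when centred on the median event. Both Grin1 exons were left out more often in HET. Grin1 is the obligatory subunit of NMDA receptors, the 63-base exon codes for an extracellular insert that alters gating and proton sensitivity, and the 111-base exon codes for part of the cytoplasmic tail. For the 63-base exon exclusion was 28.6%, 49.4%, 37.8%, 32.8% and 34.7% in WT and 50.1%, 54.4%, 49.7% and 43.0% in HET. WT replicate 2 lay just under HET replicates 1 to 3 and above HET replicate 4, so the groups overlapped, while within each series they did not. The change was 0.71 ± 0.13 (limma adjusted p = 7.02e-04) on 9563 to 19538 counts. For the 111-base exon exclusion was 30.8%, 30.3%, 32.8%, 28.6% and 34.2% in WT and 38.8%, 38.9%, 37.0% and 39.6% in HET. These groups did not overlap, and the change was 0.47 ± 0.10 (adjusted p = 0.00286). Without the variance trend both calls were lost (adjusted p = 0.135 and 0.0842). Atp2b1, a plasma membrane calcium pump, went from 10.6% ± 1.496 to 13.1% ± 1.53 (0.41 ± 0.11, adjusted p = 0.0116, and 0.0525 without HET replicate 4, 0.180 without the series term, 0.0793 centred and 0.0865 without the variance trend).

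Genes of actin and microtubules had 7 higher events and 1 lower of 71 (11.3%, close to the 9.3% of all events; median 0.12 against 0.09); centred on the median event it was 3 and 5. Diap1 (Diaph1), a formin that builds actin filaments, had an exclusion of 5.37%, 8.78%, 9.33%, 3.86% and 6.32% in WT and 14.7%, 13.1%, 14.8% and 12.5% in HET. The groups were well apart and the change was 1.13 ± 0.23 (limma adjusted p = 0.00146). Mtap6 (Map6), which stabilises microtubules in neurons, went from 4.49% ± 0.677 to 6.87% ± 0.678 at a 197-base coding exon (0.66 ± 0.13, adjusted p = 8.32e-04). Ank2, an adaptor between membrane proteins and spectrin, went from 26.2% ± 1.85 to 32.5% ± 1.94 at a 99-base exon (0.42 ± 0.09, adjusted p = 0.00293). Both had HET mice above every WT mouse, and both calls were lost without the variance trend (adjusted p = 0.0717 and 0.110). Spna2, brain alpha spectrin, rose at each of its 2 listed events, by 0.33 ± 0.08 and 0.53 ± 0.16.

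Chromatin and transcription genes had 7 higher and 2 lower events of 55 (16.4% against 9.3% of all events; median 0.16 against 0.09), and 2 and 4 when centred. Kdm6a, a demethylase of histone H3 lysine 27, lost its 156-base exon more often, 34.4%, 38.4%, 41.8%, 42.6% and 34.4% in WT against 55.9%, 51.1%, 49.6% and 52.6% in HET. No HET mouse overlapped a WT mouse (0.82 ± 0.16, adjusted p = 8.80e-04). Smarca4, the ATPase of the BAF remodelling complex, went from 83.6% ± 2.84 to 88.5% ± 1.46 (0.52 ± 0.11, adjusted p = 0.00228, and 0.0668 without the variance trend). Gse1 went down, from 85.4% ± 2.52 to 80.5% ± 2.13 (-0.45 ± 0.10, adjusted p = 0.00286, and 0.0932 without the trend). Mlx, the partner of glucose-sensing transcription factors, had an exclusion of 14.1%, 16.0%, 15.4%, 23.5% and 24.6% in WT and 23.9%, 23.1%, 22.6% and 33.1% in HET at a 90-base coding exon. In both groups the mice of the 400s were the highest, and within each series all HET mice were above the WT mice. The Mlx change was 0.71 ± 0.20 (adjusted p = 0.0166), and it was lost without the series term (0.200), when centred on the median event (0.0504), without HET replicate 1 (0.0501) and without HET replicate 4 (0.0770).

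Partners of huntingtin gave 3 higher events and none lower of 9 (33.3% against 9.3% of all events; median 0.29), and 2 higher and 1 lower when centred on the median event. Ahi1, a protein of the base of cilia that binds huntingtin-associated protein 1, had an exclusion of 37.5%, 41.8%, 31.3%, 31.4% and 37.1% in WT and 53.2%, 48.6%, 48.1% and 42.3% in HET. The lowest HET mouse was just above the highest WT mouse, WT replicate 2 (0.69 ± 0.12, limma adjusted p = 2.27e-04, and 0.0717 without the variance trend). Cbs, an enzyme of homocysteine metabolism, was left out at a 42-base exon in 40.7%, 44.0%, 43.4%, 41.7% and 42.8% of WT counts and 57.1%, 48.7%, 53.4% and 58.0% of HET counts, without overlap (0.70 ± 0.15, adjusted p = 0.00179). Ubtf, a factor of RNA polymerase I that is also on the chromatin list, went from 23.6% ± 0.576 to 27.3% ± 1.49 at a 111-base exon (0.29 ± 0.08, adjusted p = 0.0200, and 0.117 without HET replicate 4, 0.0934 without HET replicate 1 0.0957 without the series term, 0.178 without the variance trend and 0.221 when centred).

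Only 8 events came from myelin and oligodendrocyte genes, 1 of them higher and 1 lower (25% against 9.3% of all events), and 0 and 1 when centred. The lower event was Mag, the myelin-associated glycoprotein. Skipping of its 45-base exon gives the long form of the protein, and keeping it gives the short form. Exclusion was 19.3%, 21.3%, 20.5%, 25.5% and 21.4% in WT and 14.03%, 13.9%, 11.9% and 12.7% in HET. Every HET mouse was at least 5 points below the lowest WT mouse. The change was -0.85 ± 0.10 (limma adjusted p = 7.69e-07) on 2541 to 7786 counts. The higher event was Bin1, a membrane-bending protein of which oligodendrocytes and neurons use different forms, from 4.20% ± 0.688 to 8.65% ± 2.15 on 143 to 278 counts (1.08 ± 0.33, adjusted p = 0.0336). The Bin1 call was lost in 5 of 9 fits that left out a mouse, with adjusted p up to 0.117, and on the centred scale (adjusted p = 0.0627). The summed scaled counts (CPM) of the 3 oligodendrocyte markers with events (Mag, Mbp and Mobp, of 7) ran from 8102 to 13390 CPM in WT and from 9548 to 16680 in HET, and no total of a marker event passed the threshold. Their part in the Mag result was not tested.

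**Figure D3:**
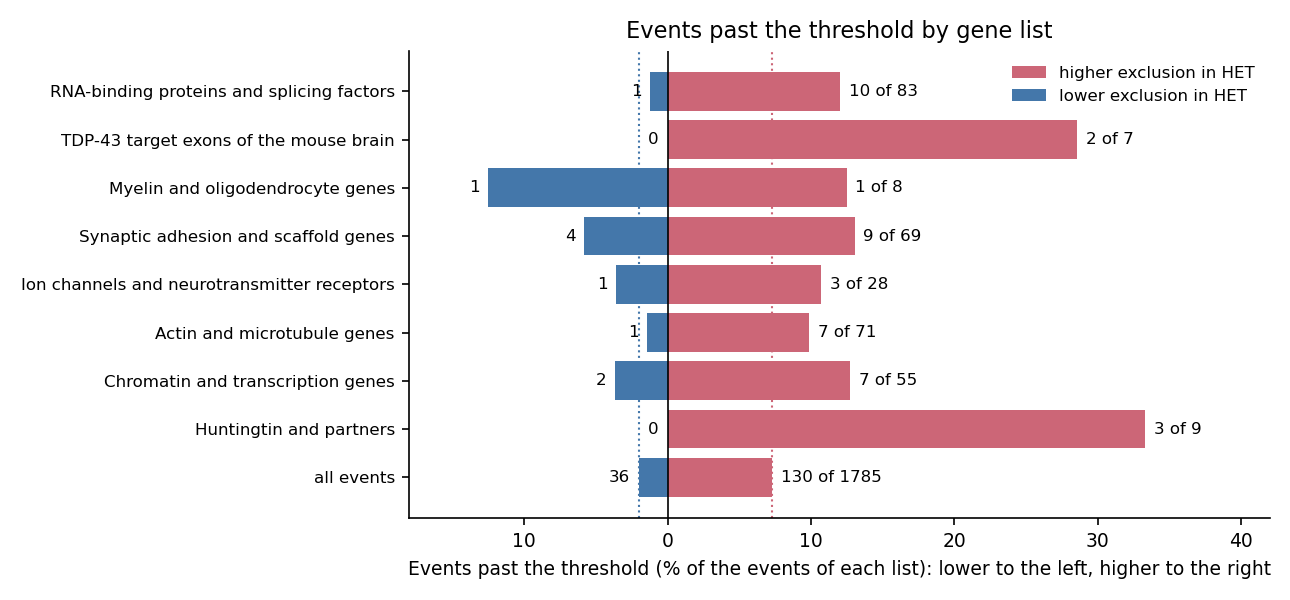
Events past the threshold in each gene list, as a percent of the events of that list, with higher exclusion in HET to the right and lower to the left. Numbers give the events past the threshold of the events listed, and dotted lines mark 7.28% and 2.02%, the shares over all 1785 events.

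The largest rises outside these lists were mostly in events of few counts. FAE (Elovl6), a fatty acid elongase, went from 16.3% ± 4.64 to 31.8% ± 7.44 (1.34 ± 0.35) on 42 to 90 counts per mouse. Tsga10 went from 21.1% ± 2.62 to 40.3% ± 3.13 (1.27 ± 0.35) on 26 to 73 counts, and Ccdc50, a ubiquitin-binding protein, from 7.76% ± 1.90 to 17.2% ± 4.00 (1.27 ± 0.30) on 132 to 199. For these 3 events the HET mice were above all WT mice, with limma adjusted p = 0.0128, 0.0164 and 0.00586. Without HET replicate 4 these became 0.0525, 0.0628 and 0.0557, and FAE also lost its call without HET replicate 2 (0.0626) or WT replicate 1 (0.0582). 2210018M11Rik (Emsy), a chromatin protein that binds BRCA2, had more counts (1026 to 1675) and an exclusion of 7.99%, 5.98%, 5.73%, 5.60% and 4.58% in WT and 11.97%, 11.7%, 10.1% and 10.7% in HET. Its groups did not overlap, and its change of 0.95 ± 0.15 (adjusted p = 1.23e-04) kept its call without any single mouse.

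Ep400, a subunit of the TIP60 acetyltransferase complex, was near full exclusion in both groups, 98.3% ± 0.226 in WT and 99.3% ± 0.163 in HET (1.14 ± 0.32, adjusted p = 0.0207). The 3 remaining events of the rule were 1300010M03Rik (Retreg3), a receptor of endoplasmic reticulum autophagy, from 28.1% ± 5.61 to 41.97% ± 3.18, 5830434P21Rik (Prrc2b) from 2.63% ± 0.755 to 4.98% ± 1.38, and Atxn7l4 (Atxn7l1) from 5.71% ± 1.53 to 11.05% ± 3.00. Their changes were 0.91 ± 0.24, 0.95 ± 0.31 and 1.08 ± 0.35 (limma adjusted p = 0.0134, 0.0461 and 0.0486). Each of these 4 calls was lost when certain single mice were left out, 3 mice for Ep400, 3 for 1300010M03Rik, 6 for 5830434P21Rik and 8 for Atxn7l4, with adjusted p up to 0.112, 0.112, 0.201 and 0.160.

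Among the falls, Ttc3, a ubiquitin ligase, had an event with an exclusion of 8.69%, 10.6%, 10.2%, 9.17% and 9.70% in WT and 5.58%, 5.92%, 5.82% and 7.42% in HET (-0.68 ± 0.11, limma adjusted p = 1.32e-04). A second Ttc3 event rose by 0.56 ± 0.12. The long junction of the first is the short junction of the other, so both record that this shared junction gained against its neighbours. Mfge8, a secreted protein that marks cells for phagocytosis, was left out at a 111-base coding exon in 75.9%, 70.6%, 70.1%, 68.3% and 68.5% of WT counts and 63.1%, 64.5%, 64.9% and 56.8% of HET counts. All HET mice were lower, with a change of -0.60 ± 0.12 (adjusted p = 0.00153). Akap9, a kinase anchor of the Golgi and centrosome, went from 90.7% ± 0.861 to 84.6% ± 4.35 (-0.84 ± 0.20, adjusted p = 0.00586). HET replicate 4 was the lowest at 78.4%, and without it the adjusted p was 0.153.

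A further 4 falls of the rule rest on smaller margins. Il34, a ligand of the microglial receptor CSF1R, went from 97.0% ± 0.706 to 93.9% ± 0.791 (-1.05 ± 0.34, adjusted p = 0.0461), and the call was lost whichever mouse was left out (adjusted p 0.0522 to 0.173). Nf1, a regulator of Ras, went from 61.0% ± 6.80 to 43.3% ± 8.23 on 39 to 64 counts (-1.02 ± 0.33, adjusted p = 0.0498), lost without any one of 8 mice (up to 0.317). Mtmr10 went from 18.5% ± 2.006 to 14.2% ± 1.53 (-0.46 ± 0.15, adjusted p = 0.0461), lost without any one of 6 (up to 0.260). Ncoa1, a coactivator of nuclear receptors, went from 1.95% ± 0.170 to 1.42% ± 0.191 (-0.49 ± 0.14, adjusted p = 0.0202), lost without any one of 3 (up to 0.148).

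In 11 genes more than 1 event changed, 25 events in all, and in 8 of these genes every changed event moved the same way. Besides those above they were Cadps, a protein of dense-core vesicle release, Pcnx and, with opposite directions, Ktn1. Over all events 110 share a junction with another event of their gene, 8 of them changed, in Camk2d, Sat1, Sorbs2, Ttc3 and Zc3h14. Mtap7d2 (Map7d2), a microtubule-associated protein, did not pass. Its exclusion was 2.03%, 2.18%, 2.17%, 2.35% and 3.27% in WT and 2.502%, 2.29%, 2.70% and 2.10% in HET at a 99-base exon, with WT replicate 5 the highest of all 9 mice (0.03 ± 0.16, adjusted p = 0.929).

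The exons that were left out more often resembled the panel in length. A single annotated exon was matched to 108 of the 130 higher events, 25 of the 36 lower and 1292 of all. Median lengths were 85, 84 and 90 bases, and 70.4%, 76.0% and 66.5% were multiples of 3 bases. Fully coding exons made up 88.0%, 80.0% and 77.2%. The introns before and after the exon had medians of 1478 and 1283.5 bases for higher events, 1976 and 1453 for lower events, and 2149.5 and 2133.5 over all matched exons. The 6 letters TGTGTG, the DNA form of a UG repeat as bound by TDP-43, were sought on the transcribed strand in the exon and 250 bases on either side. They occurred in 47 of the higher exons (43.5%), 7 of the lower (28.0%) and 498 of all (38.5%). The letters TGACT, a form of the m6A motif, occurred in the same stretch in 57.4%, 52.0% and 54.8%. The motifs can overlap, since TGTGTG ends with the letters TG that open TGACT. These shares are descriptions and no test was made of them. The changed events also had more counts, with a median over events of 1548 per mouse against 666 over all.

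Event totals, short plus long scaled to the summed counts of the mouse (CPM), stand in for the level of the transcript around an event. Totals changed for 69 events (3.87%, limma), 46 higher and 23 lower in HET. Gpr64 (Adgrg2), an adhesion receptor, rose at both its events. The first had 4.59, 8.603, 8.51, 8.42 and 5.05 CPM in WT and 20.2, 11.6, 14.3 and 16.9 in HET, all HET mice above all WT mice (1.17 ± 0.24 on the log2 scale, adjusted p = 0.0139), and the second rose by 0.94 ± 0.18. Dysf (dysferlin, a membrane repair protein) rose by 0.86 ± 0.21. Cables1, a partner of the kinase Cdk5, had 350.3, 679, 589.5, 496 and 556 CPM in WT and 297, 321, 375 and 289 in HET. WT replicate 1 lay below HET replicate 3, and the change was -0.72 ± 0.14 (adjusted p = 0.0124). Eya3 and Mapk12 changed by -0.96 ± 0.21 and -0.73 ± 0.18, at means of 10.2 and 19.6 CPM in WT. In bulk cortex, fewer cells of a type and less RNA per cell cannot be told apart. The count fell to 16 when HET replicate 4 was left out, to 18 for HET replicate 1, to 19 for WT replicate 3, to 37 for HET replicate 2 and to 41 for WT replicate 4.

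Both exclusion and total passed the threshold in 6 events, Fhl1, G3bp2, Lass5, Xpa, AK015214 and Mfge8. These are 3.61% of the events changed in exclusion, near the 3.87% of all events changed in total, and 8.7% of those changed in total, near the 9.3% of all events changed in exclusion. Exclusion and total rose in the first 4 of these genes, Mfge8 fell in both, and AK015214 rose in exclusion and fell in total. The summed counts of neuronal markers (5 of 10 with events, among them Camk2b, Camk2g, Grin1 and Mtap2) were 8800 to 10880 CPM in WT and 8522 to 9540 in HET. Ndrg2, the 1 astrocyte marker with an event of 6, had 11700 to 16600 in WT and 10490 to 15040 in HET, and Pecam1, of endothelium, 42.1 to 97.3 and 49.5 to 131. No microglial marker of 6 and no marker of blood or muscle of 5 had an event, so neither could be checked. None of the totals of marker events changed.

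**Figure D4:**
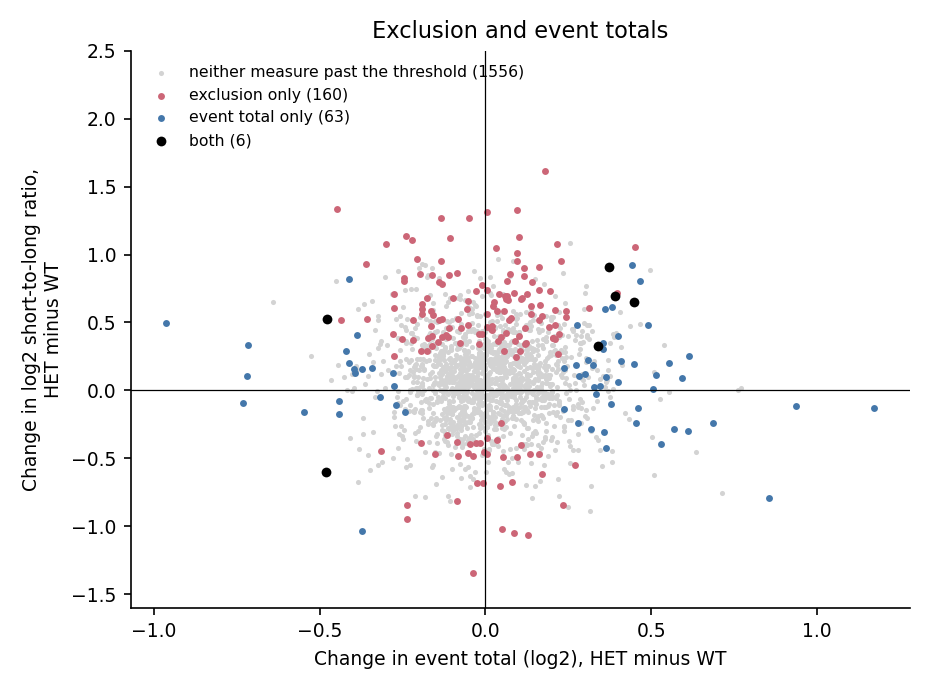
Each point is 1 of 1785 events, with the change in its total (log2, HET minus WT) on the horizontal axis and the change in its log2 short-to-long ratio on the vertical axis. Colours mark which measure passed the threshold; 6 events passed in both.

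The other HD mice of the series had WT mice of their own, except the Q150 HOMO mice, and the same events could be read in them. R6/2 mice carry a transgene of human huntingtin exon 1 and were 3 months old according to the methods (3 HD, 3 WT), and Q175 mice carry 175 glutamines in the mouse gene and were 18 months old (4 HET, 3 HOMO, 5 WT). Line, age and dose thus differ together between the sets. Of 126 events higher in Q150 HET and listed in the R6/2 set, 99 (78.6%) were also higher in R6/2 HD, where 21.7% of the 1680 shared events were higher; they are 27.2% of its higher events. Of 35 lower events, 14 (40%) were lower in R6/2 HD, against 7.68% of all, and 10.9% of its lower events. None passed in the opposite direction. Over both directions it was 113 of 161 events, and 82 of 141 when centred on the median event. Median changes over these events were 0.92 and -0.41 in R6/2 HD and 0.59 and -0.48 in Q150 HET.

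In the older Q175 HET mice, which also carry 1 mutant allele, few events changed at all, 0.404% higher and 0.347% lower of 1731 shared events. Of the 127 events higher in Q150 HET, 6 were higher there, 85.7% of the Q175 HET rises, and of 35 lower events 3 were lower, 50% of its falls. 105 of the 127 had a positive sign, against 56.3% of all shared events, with a median of 0.18. Of the 35 lower events, 22 had a negative sign, with a median of -0.097. In Q175 HOMO, 43 were higher (33.9%, against 5.95% of all shared events and 41.7% of its rises) and 7 lower (20%, against 1.62% and 25% of its falls). The difference between the Q150 HET and the Q175 HET change itself passed for 2 of 1731 events (0.116%, limma, 178 at an unadjusted p under 0.05). For all other events, a change in Q150 HET and none in Q175 HET is not shown to differ.

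The 2 events that differed were Hnrpdl and Diap1. For the 171-base Hnrpdl exon the change was 1.62 ± 0.12 in Q150 HET and 0.78 ± 0.12 in Q175 HET, a difference of 0.83 ± 0.17 (adjusted p = 0.0184). Diap1 rose by 1.13 ± 0.23 in Q150 HET and did not pass in Q175 HET, at -0.40 ± 0.23 (adjusted p = 0.592), and the difference was 1.53 ± 0.32 (adjusted p = 0.0184). Diap1 was at 0.72 ± 0.25 in Q175 HOMO (adjusted p = 0.0730) and at 1.94 ± 0.44 in R6/2 HD (adjusted p = 0.00553). Hnrpdl changed by 4.72 ± 0.18 in R6/2 HD and 1.78 ± 0.13 in Q175 HOMO. Mag changed by -0.85 in Q150 HET, -0.73 in Q175 HET, -0.93 in Q175 HOMO and -1.68 in R6/2 HD. All 4 of these values passed the threshold. The 74-base Rbm5 exon changed by 1.24 ± 0.17 in R6/2 HD (adjusted p = 1.66e-04) and by 0.17 ± 0.16 and 0.00 ± 0.15 in Q175 HET and HOMO, neither past the threshold. The Nrxn3 exon changed by -1.66 in R6/2 HD (limma adjusted p = 5.85e-05) and by -0.596 in Q175 HOMO (0.0109). In Q175 HET it was at -0.541 and did not pass (0.0789).

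Q150 HOMO mice (150Q/150Q, n = 4) were compared with the same 5 WT mice, so their changes are not independent of those in Q150 HET and are given side by side only. Hnrpdl changed by 1.62 ± 0.12 in HET and 2.53 ± 0.14 in HOMO. For the 63-base Grin1 exon it was 0.71 ± 0.13 and 1.26 ± 0.15 and for Ahi1 0.69 ± 0.12 and 1.28 ± 0.15. Mag had a smaller value in HOMO, -0.85 ± 0.10 in HET against -0.44 ± 0.13. Mtap7d2 was at 0.03 ± 0.16 in HET and 0.65 ± 0.16 in HOMO. Differences between HET and HOMO were not tested.

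**Figure D5:**
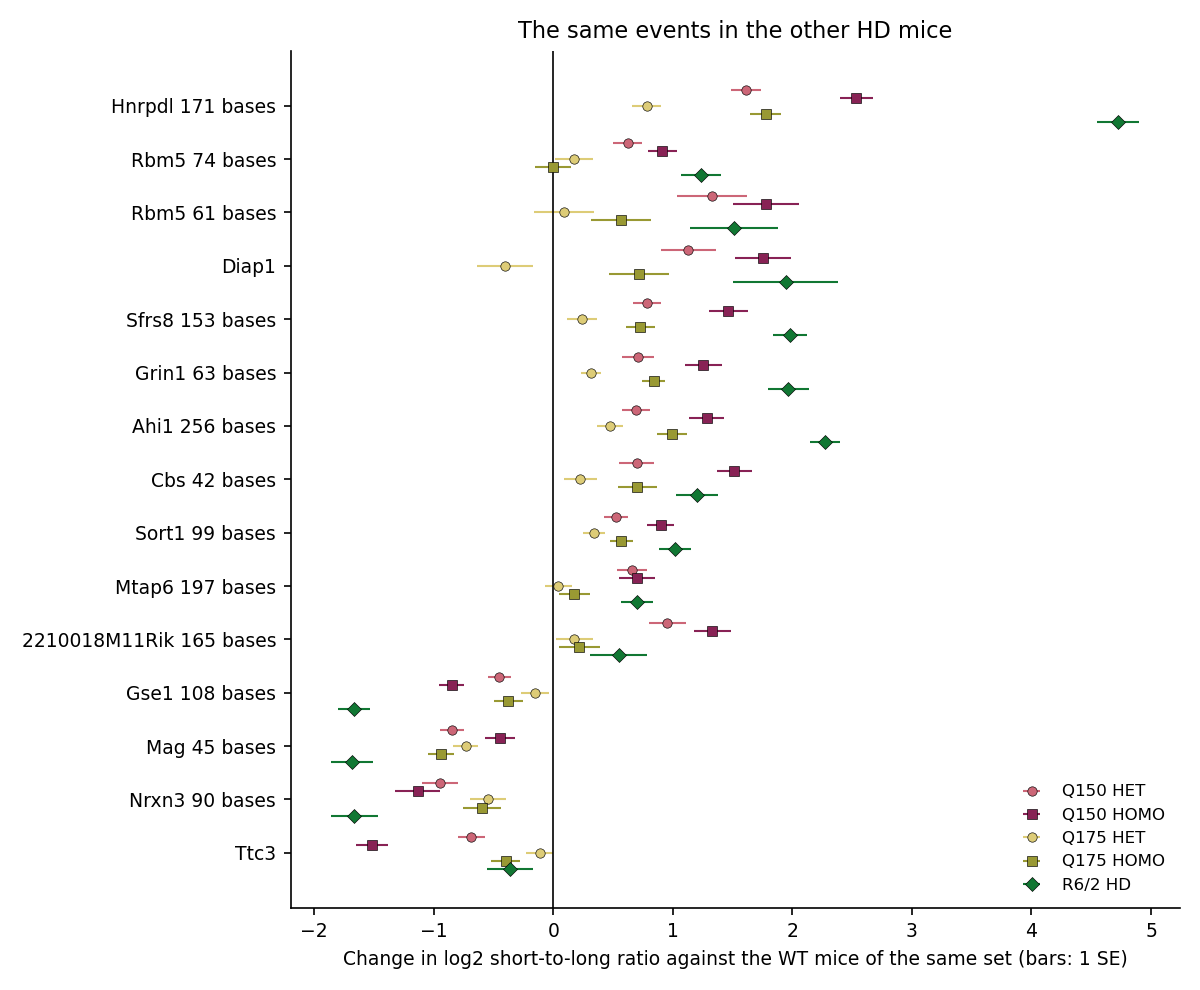
Change in log2 short-to-long ratio (bars, 1 SE) of 15 events against the WT mice of the same set, in Q150 HET, Q150 HOMO, Q175 HET, Q175 HOMO and R6/2 HD cortex. Q150 HET and HOMO share their WT mice, and Q175 HET and HOMO share theirs; Hnrpdl is highest in R6/2 HD at 4.72, and Diap1 lies on opposite sides of 0 in Q150 HET and Q175 HET.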

How the data were processed

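Cortical RNA was assayed by RASL-seq, in which probe pairs annealed to known splice junctions were selected on oligo(dT) beads, ligated, amplified and sequenced. The deposited values are short and long junction counts per event as the authors left them, with no normalization; their unit was recorded as other because large values carry digit separators, which were removed. The main test works on log ratios of the counts, and a quasi-binomial model of the counts was an alternative. The aligner is not given in the sources used here. The labels' processing notes name the build mm10, but only 13.96% of events on the same chromosome lie inside their gene on that build, so exons were matched by gene and by the exact distance between the flanking splice sites in GENCODE M21 (95.6% of cassettes matched, against 3 events when the distance was off by 50 bases; 1292 with a single exon).

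Groups came from the genotype field. For the HET mice the titles and the genotype field name the line differently, and it was taken from the number of glutamines. For each event log2((short + 0.5) / (long + 0.5)) was the response in limma 3.58.1 (R 4.3.3), with terms for genotype and series over the 9 mice. The variance was allowed to follow the counts, with Benjamini-Hochberg adjustment over all events. Events needed a mean of 10 counts, which removed none. A pseudocount understates changes of rare junctions. Mean exclusion was compared by exact permutation within series, and totals by limma on log2 CPM, counts scaled to the total of the mouse. In simulated counts for this comparison (1785 events, 200 changed) the test recovered 36% of changes of 0.5 and 76% of changes of 1, with 3.45% of calls false. The simulated spread followed the variance trend that the test assumes, and the changes had random signs. The share of false calls in the real data is therefore not given by it. Pairs of mice of a group differed beyond counting noise (chi-square per degree of freedom 5.74 to 12.4 within a series and 11.8 to 23.9 across series), so none was counted as a repeat. The series itself was associated with 204 events.

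Named events were all events of Mag, Mlx, Mtap7d2, Hnrpdl, Rbm5, Htt, Tardbp and Mettl3, the 14 largest rises and 10 largest falls among changed events whose groups do not overlap, up to 3 changed events per gene list by p, and the 3 largest changes of totals in each direction; other events given by value alone were added after their values had been seen. Some results are not reported here. The comparison, the gene lists and the rule were chosen with earlier results of these data known, and support nothing by themselves. Listed alternatives were other count minimums, no series term, all 13 mice of the set, centring on the median event, no variance trend, a pseudocount of 1, a quasi-binomial model, the series under 100 alone and leaving out each mouse. Figures were drawn with matplotlib 3.10.9.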

Additional observations from a re-analysis of the deposited data

Results flagged for a closer look

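In 4 of 90 groups of mice examined, 1 mouse lay farther from the rest than Dixon's 95% limit allows, and chance alone gives about 1 in 20. For Mtap7d2, WT replicate 5 had an exclusion of 3.27% against 2.03 to 2.35% in the other WT mice. For Mlx, HET replicate 4 had 33.1% against 22.6 to 23.9% in the other HET mice. For Akap9, WT replicate 2 had 89.2% against 90.9 to 91.4% in the other WT mice. For Sfrs8, WT replicate 5 had 77.5% against 69.8 to 72.0%. Of these mice, HET replicate 4 and WT replicate 5 belong to the series of the 400s.

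For 2 named events the change in Q150 HET mice differed from that in Q175 HET mice by a direct test (limma, interaction). The difference on the log2 scale was 0.83 for the 171-base exon of Hnrpdl and 1.53 for Diap1, each with an adjusted p of 0.0184. The sets differ in line, age and WT mice, and the part of each was not tested.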

How the results depend on the processing

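The 166 changed events became 71 (61 higher, 10 lower) without the series term, 77 (61 higher, 16 lower) in the series under 100 alone, 44 (37 higher, 7 lower) without the variance trend, 143 (63 higher, 80 lower) relative to the median event, and 73 to 182 (57 to 145 higher, 16 to 37 lower) when a mouse was left out. All other alternatives stayed within 1.5 times, with 159 by the quasi-binomial model, 137 with all 13 mice of the set and 166 with events of the same counts taken once, which was chosen after the data had been seen. Totals became 18 (11 higher, 7 lower) without the series term, 28 (19 higher, 9 lower) without the trend, and 16 to 91 (9 to 55 higher, 7 to 36 lower) when a mouse was left out. The difference in mean exclusion stayed positive throughout, at 0.865 to 0.996 points when a mouse was left out. The median exclusion over events in place of the mean gave 1.88 points (p = 0.0167). In the exact permutation test p was 0.05 for the share of summed counts (0.853 points), 0.05 without WT replicate 4 or 5 and 0.10 without HET replicate 4 and in the series under 100 alone (0.960 points); these last 4 designs allow no smaller p. The mean log2 ratio in place of mean exclusion, added after the data had been seen, gave a difference of 0.103 at p = 0.0167 in the exact test. Events shared with R6/2 HD in direction went from 113 of 161 to 53 of 70 without the series term, where fewer events had passed. Centred on the median event they were 82 of 141.

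Of 42 named events that changed, 13 kept their call under every alternative run for them (among them Hnrpdl, Mag, the 74-base Rbm5 exon, Diap1, 2210018M11Rik, Nrxn3, Ttc3, Mfge8, Sfrs8, the 45-base Sorbs2 exon, Kdm6a and Cbs), and 20 lost it without the variance trend, 1300010M03Rik, 5830434P21Rik, Ahi1, Akap9, Ank2, Atp2b1, FAE, both Grin1 exons, Gse1, Mtap6, Mtmr10, Ncoa1, Nf1, Ppp3ca, the 61-base Rbm5 exon, Smarca4, 1 event of Sorbs2, Sort1 and Ubtf. In the series under 100 alone, which has 3 mice a group, 17 lost it, 1300010M03Rik, 5830434P21Rik, Akap9, Atp2b1, Atxn7l4, Bin1, Ep400, FAE, Il34, Mlx, Mtmr10, Ncoa1, Nf1, the 85-base Rbm5 exon, Srrm2, Tsga10 and Ubtf. It was lost without the series term by 5830434P21Rik, Atp2b1, Atxn7l4, Bin1, Il34, Mlx, Mtmr10, Ncoa1, Nf1, Srrm2 and Ubtf, on the centred scale by 5830434P21Rik, Atp2b1, Atxn7l4, Bin1, Mlx, Ppp3ca, Srrm2 and Ubtf, and in the quasi-binomial model by 5830434P21Rik, Atxn7l4, Bin1, Ep400, Il34, Mtmr10, Nf1 and Srrm2. With all 13 mice of the set it was lost by 5830434P21Rik and Mtmr10, and with a pseudocount of 1 by Atxn7l4. The sign turned for the 2 named events that had not passed. Mtap7d2 was at -0.0768 when centred and -0.0352 to 0.233 when a mouse was left out. The 105-base Hnrpdl exon was at -0.00697 without the series term, -0.108 centred, -0.00536 by the quasi-binomial model, -0.0754 in the series under 100, and -0.0754 to 0.0535 when a mouse was left out. Where a value moved, the cause was not tested. No paired analysis was possible because the mouse numbers in the labels are not shared between the groups. Depth limits the 5 events named for their exclusion with under 100 counts in some mouse (Tsga10, Nf1, FAE, Atxn7l4 and Srrm2). Their widest 95% Wilson intervals reached 6.24 to 14.98 points to each side. Events named for their totals were not counted here. Among these, Gpr64, Dysf, Eya3 and Mapk12 were also low, at WT means of 7.03 to 19.6 CPM.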
